A study of Sus scrofa with 12 samples.

Results

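Inside protein-coding genes, 1088 open chromatin regions of pig skeletal muscle held at least 2-fold more scaled ATAC-seq reads in Luchuan than in Duroc pigs. They were among 46202 inside regions with 60 or more reads in all. Open chromatin was profiled in the longissimus dorsi muscle, the long muscle of the back of 3 Duroc and 3 Luchuan boars. All animals were 180 days old, were raised under the same feeding conditions and were fasted overnight before slaughter, so the groups differed by breed alone in the labels. Duroc is a fast-growing lean breed, and Luchuan is a small, fat Chinese breed. The deposited table held 1 read count per breed and region, read from its column names as the pool of the 3 boars, so n = 1 pooled count per breed, no spread between animals could be given and no test was made. Overlapping rows on chromosomes 1 to 18 were merged by keeping the longest row, which left 136586 regions. The ratio of a region was log2 of its Luchuan reads plus 1, times a scale, over its Duroc reads plus 1. The scale was 1.51, the summed Duroc reads over the summed Luchuan reads of these regions (20275377 and 13459633). It thus rests on reads within open regions, and a scale from all reads of the libraries was not tried. Another scale would shift all ratios by a shared amount, and with them the numbers of regions past the threshold and above 0. A region was taken as Luchuan-biased inside a gene if its ratio was 1 or more, it had 60 or more reads over both breeds and more than 5 Duroc reads, and its midpoint lay within a protein-coding gene and more than 2 kb from every end of such a gene. The regions were thus chosen by their read counts and ratio, which are given as a description.

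ATAC-seq uses a transposase that inserts sequencing adapters into DNA that is not wrapped in nucleosomes, so a region with many reads is one that proteins can reach. Open regions at the start of a gene usually mark its promoter. Those inside a gene body are often enhancers, which bind transcription factors and act on the promoter of the same or of a neighbouring gene, and some are promoters of shorter transcripts. In skeletal muscle, enhancers of this kind bind the muscle-specific factors of the MyoD and MEF2 families and hormone receptors such as the glucocorticoid receptor and the oestrogen-related receptors. The annotation used here gave the ends of each gene without strand or exons, so introns, exons, untranslated regions and internal promoters are not told apart below.

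The tissue carried open chromatin at the genes of skeletal muscle fibres. All 12 fibre marker genes had at least 1 region. They held 774 Duroc and 689 scaled Luchuan reads per kb of region, against 419 and 419 over all regions. Adipocyte markers were also high, with 642 and 669 over 36 regions of 9 genes. The remaining marker lists held 227 to 380 Duroc and 210 to 404 scaled Luchuan reads per kb, below the values over all regions. For the markers of other cells the log2 ratio of the summed reads lay between -0.11 for endothelial cells and 0.09 for satellite cells. Adipocytes were at 0.06, macrophages at 0.01, fibroblasts at -0.09 and Schwann cells at -0.07. The fibres themselves were at -0.17. No region was listed at CIDEC and FABP4 of the 11 adipocyte markers, at CDH5 of the 11 endothelial markers on chromosomes 1 to 18, or at LUM and TCF21, at F13A1 and MARCO, at CDH19 and SOX10 or at VCAM1 of the remaining lists. More open chromatin per cell and more cells of a type cannot be told apart in pooled muscle. The reads of both breeds were aligned to an assembly made from a Duroc pig, and the part of this in the ratios was not tested.

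The Luchuan-biased regions were mostly of low to middle read number. Their Luchuan reads ran from 35 to 706 with a median of 65, and their Duroc reads from 6 to 445 with a median of 36. The rule itself leaves only regions with more Luchuan than Duroc reads before scaling. The median width was 308 bases, with a range from 150 to 1040, against 319 bases over all inside regions. The 1088 regions were 2.35% of the inside regions, and 2207 regions, 4.78%, were Duroc-biased by the mirrored rule. At gene ends, within 2 kb, 161 of 19990 regions (0.805%) were past the same threshold towards Luchuan and 326 (1.63%) towards Duroc. Between genes the counts were 803 (3.23%) and 1625 (6.53%) of 24877. With these thresholds Duroc-biased regions were the more numerous in all 3 places. The read minimum is on unscaled reads, of which Duroc had more, so it does not treat the breeds alike. Inside genes the order turned with a minimum of 30 reads, where 2990 regions were Luchuan-biased and 2980 Duroc-biased. With a minimum of 120 reads the counts were 441 and 1217. The part of the read minimum in the excess of Duroc-biased regions was not tested.

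**Figure D1:**
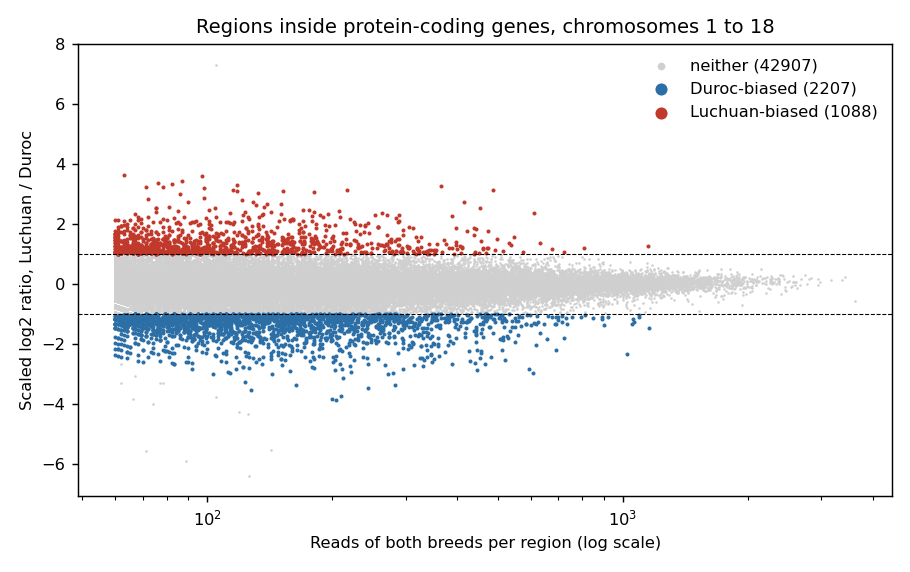
Each point is 1 of the 46202 inside regions, with its reads of both breeds on a log axis and its log2 ratio of scaled Luchuan over Duroc reads, and dashed lines mark the 2-fold thresholds. Luchuan-biased regions are red (1088) and Duroc-biased regions blue (2207), few of either have 480 or more reads (14 and 85), and the group of neither (42907, grey) includes 15 regions past 2-fold whose count in the lower breed was 5 or fewer.

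Most ratios were close to the threshold. The median ratio was 1.27, with quartiles of 1.11 and 1.55, and 517 regions (47.5%) were below 1.25. A ratio of 2 or more was reached by 111 regions and one of 3 or more by 17. The 95% exact (Clopper-Pearson) interval of the ratio, which covers counting error only, lay above 1 for 271 regions (24.9%), and the thresholds on ratio and reads fix that it lies above 0 for all. No molecular identifiers are described for the reads, so they may not be independent molecules. The intervals also leave out the spread between animals and are narrower than the full error. The median width of the interval was 1.25 on the log2 scale. Just inside the threshold lay regions of PFKFB3 (250 Luchuan and 188 Duroc reads), UBAP1 (193 and 145) and CDYL2 (96 and 72). Just outside lay regions of TGFBI (64 and 48, ratio 0.999), LOC100739557 (64 and 48) and CEP192 (109 and 82, ratio 0.997). One region past the ratio was kept out by the Duroc minimum alone: it lay in DTNA, the gene of the dystrophin-associated protein dystrobrevin alpha, on chromosome 6 from 118688236 to 118688524, with 105 Luchuan and 0 Duroc reads. Against a floor of 3 Duroc counts its scaled Luchuan count was at least 52.7-fold higher.

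The share of inside regions that were Luchuan-biased fell with the read number. It was 4.3% (457 regions) at 60 to 89 reads, 2.84% (190) at 90 to 119, 2.35% (309) at 120 to 239, 1.39% (118) at 240 to 479 and 0.194% (14 of 7211) at 480 or more. The Duroc-biased share took another course, with 5.44%, 6.15%, 6.03%, 3.98% and 1.18% in the same classes. At the lowest read numbers 457 Luchuan-biased stood against 578 Duroc-biased regions, and at 480 or more reads 14 stood against 85. The most heavily read open regions were thus those in which few Luchuan-biased regions were found. Of the regions kept, 717 (65.9%) carried the deposited label of a peak found in Luchuan alone, 337 (31.0%) that of a Luchuan peak shared with Duroc, 27 (2.48%) that of a shared Duroc peak and 7 (0.643%) that of a peak found in Duroc alone, against 7.59%, 19.5%, 47.3% and 25.6% over all inside regions. The peak labels were made from the same reads as the ratio and are no separate measurement.

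**Figure D2:**
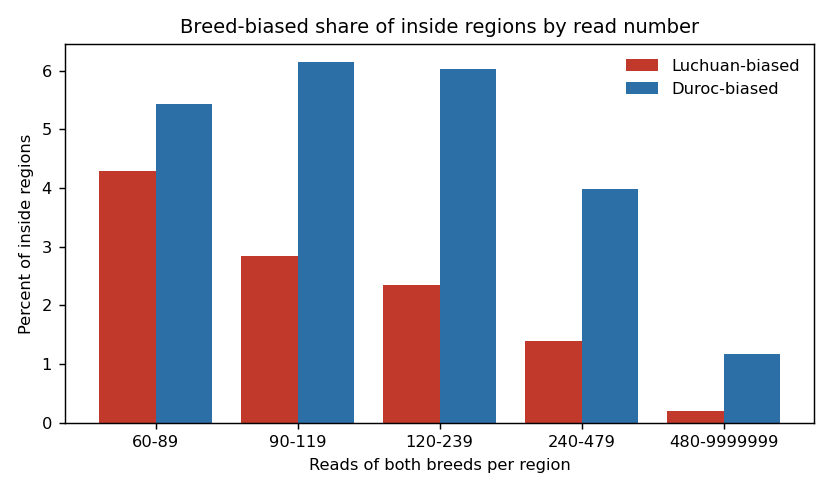
Bars give the percent of inside regions in each class of reads per region (both breeds summed) that were Luchuan-biased (red) or Duroc-biased (blue). The Luchuan-biased share fell from 4.3% at 60 to 89 reads to 0.194% at 480 or more, and the Duroc-biased share was the higher in every class.

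The Luchuan-biased regions lay deep inside long genes. Their median distance to the nearest gene end was 37.5 kb (quartiles 13.6 and 83.2), against 26.9 kb (10.4 and 63.4) for all inside regions and 26.7 kb for the Duroc-biased. The 719 genes with at least 1 Luchuan-biased region had a median length of 159 kb, against 54 kb for all 8159 genes with an inside region and 107 kb for the genes with a Duroc-biased region. Long genes hold more regions and so more chances of a biased one. By chromosome the Luchuan-biased share ran from 1.53% on chromosome 17 to 3.62% on chromosome 10, where 55 of 1520 inside regions were Luchuan-biased and 53 Duroc-biased. Chromosome 10 was the only autosome on which the Luchuan-biased regions were the more numerous, and 12 of its 55 belonged to ESRRG and 5 to PFKFB3.

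The regions were spread over many genes, and a small number of genes held several. Of the 719 genes, 533 held 1 Luchuan-biased region, 109 held 2 and 77 held 3 or more, so that 345 of the 1088 regions lay in genes with 3 or more. Counts are of single regions, and 12 regions lay in the overlap of a pair of genes and are counted in each. In descending order the leading 12 genes were FKBP5 with 20 regions, MICAL2 with 13, ESRRG with 12, FNDC1 with 8, CDH13, FHOD3, PDE4D and FAM13A with 7 each, and SH3BP5, RALGPS1, ENOX1 and ASB4 with 6 each. WWOX, AUTS2, KCNMA1, SEC14L1 and REV3L also held 6. GRK5, SNX29, PFKFB3, GHR, CALD1, AMPD3 and STARD13 held 5. The 17 genes with 4 were LOC102165734, ZNF423, PDE1C, PARD3, CSRNP3, RFC3, ADCY5, CREB5, PDK4, ZFAT, EPHB1, TNIP1, ANKS1B, PPARGC1A, HECW2, NAV3 and ADAMTS12. The 35 genes with 3 were CCDC85A, GGTA1P, CD59, SIK2, PRICKLE2, SNTB1, PLEKHM1, AGBL1, RXRA, GRIN2B, RPH3AL, LOC102164422, FSTL4, CEP192, DAP, CES1, ZNF521, TRPM3, ALG9, EBF3, SIK3, ACSS3, ARHGAP26, NFIA, FRY, KLF9, RBMS3, KIAA1211, DIS3L2, SUSD4, BICD1, ELMO1, KIAA1549L, MAST2 and FARP1. The regions of 1 gene share the same libraries and are not replicates of each other.

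In most of these genes the Luchuan-biased regions were a minority of the open regions. The median share over the 77 genes was 23.1%, and 12 genes had 50% or more: FKBP5, PDK4 and CES1, in which every inside region with 60 or more reads was Luchuan-biased (20, 4 and 3), and FNDC1, SEC14L1, DAP, BICD1, LOC102165734, KIAA1549L, MICAL2, AMPD3 and CD59. The remaining regions of the 77 genes leaned the same way, with 1073 of 1602 (67.0%) above a ratio of 0, against 43.4% of the 45114 inside regions that were not Luchuan-biased. The lean was not shared by all: of the 64 genes with 5 or more remaining regions, 30 had 75% or more of them above 0 and 12 had 50% or fewer.

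**Figure D3:**
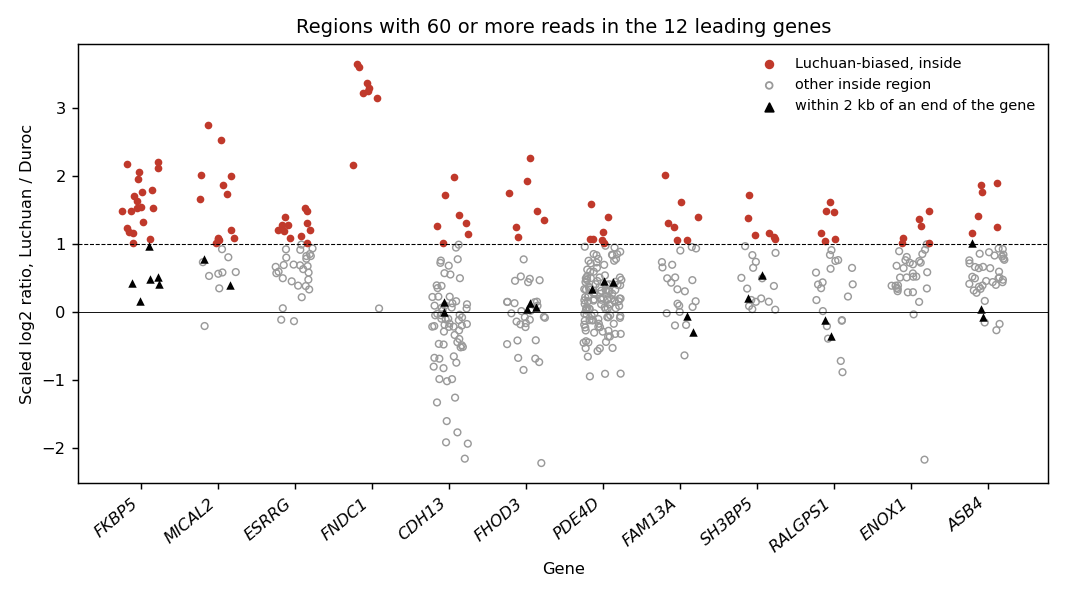
Each point is a region with 60 or more reads in 1 of the 12 genes with the most Luchuan-biased regions, with the log2 ratio of scaled Luchuan over Duroc reads on the vertical axis and a dashed line at the threshold of 1. Luchuan-biased inside regions are red, other inside regions are open circles and regions within 2 kb of a gene end are black triangles: all 20 inside regions of FKBP5 are red, while CDH13 runs from below -2 to 1.98.

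FKBP5 encodes a co-chaperone that binds the glucocorticoid receptor with Hsp90 and lowers its hormone affinity, and its gene is itself switched on by glucocorticoids through enhancers in the gene body. It spans 109 kb of chromosome 7 (Sscrofa11.1, 31441764 to 31550704). All 20 of its inside regions were Luchuan-biased, with Luchuan reads from 35 to 336, Duroc reads from 15 to 240 and ratios from 1.01 to 2.20 around a median of 1.53. They lay between 4.06 and 95.9 kb from the lower-coordinate end, so the excess of Luchuan reads ran along most of the gene. The most heavily read regions were that from 31473196 to 31473922, with 336 Luchuan and 240 Duroc reads (ratio 1.07), and that from 31468021 to 31468717, with 324 and 174 (1.48). The strongest ratios belonged to lightly read regions such as that from 31449314 to 31449530, with 63 and 20 reads (2.20). The 6 regions at the ends of the gene all had ratios above 0 and none reached 1 (0.16 to 0.97).

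MICAL2 encodes a monooxygenase that oxidises and takes apart actin filaments and acts on the actin-sensing SRF pathway of gene control. It lies on chromosome 2 (47042475 to 47302087, 260 kb), and 13 of its 22 inside regions were Luchuan-biased with none Duroc-biased. The regions began 75.1 kb from the lower-coordinate end and reached to 253 kb. The strongest, from 47242690 to 47243050, held 106 Luchuan and 23 Duroc reads (ratio 2.75, interval 2.13 to 3.51), followed by that from 47225139 to 47225376 with 60 and 15 (2.52). Next to these, between 47207259 and 47221316, stood 4 with ratios from 1.01 to 2.01, of which the most heavily read had 221 and 91 reads (1.86). A separate group stood near the upper end, where the region from 47290392 to 47290949 had 286 and 186 reads (1.21) and that from 47295467 to 47295904 had 164 and 74 (1.73). Of the 9 inside regions below the threshold, 8 were above 0, with a median of 0.58.

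ESRRG encodes the oestrogen-related receptor gamma, an orphan nuclear receptor that drives genes of oxidative metabolism in muscle. Its 661 kb on chromosome 10 (6710615 to 7371419) held 12 Luchuan-biased regions among 40, all of modest ratio (1.02 to 1.52, median 1.24). The most heavily read, from 7145498 to 7146146, held 280 Luchuan and 182 Duroc reads (1.21), and the strongest, from 7012859 to 7013169, had 58 and 30 (1.52, interval 0.88 to 2.23). Here the whole gene leaned towards Luchuan, since 26 of the 28 inside regions below the threshold were above 0, with a median of 0.64. No region with 60 or more reads lay at its ends.

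FNDC1 encodes a protein with fibronectin type III domains. It showed the opposite form, a short block of large ratios. On chromosome 1 (8007320 to 8106875), 8 of its 9 inside regions were Luchuan-biased, and they stood within 8.7 kb of each other, from 20.8 to 29.5 kb above the lower end of the gene. Luchuan reads were 87, 68, 120, 85, 103, 57, 99 and 67 in order of position, and Duroc reads were 10, 10, 40, 13, 15, 6, 16 and 9. The ratios were 3.59, 3.24, 2.15, 3.21, 3.29, 3.64, 3.15 and 3.36, so 7 of the 8 were above 3. The only other inside region had a ratio of 0.05. Of the 17 Luchuan-biased regions with a ratio of 3 or more, 7 were these.

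FHOD3, which encodes a formin that builds and maintains actin filaments of the sarcomere, held its 7 regions within 60.5 kb of its 549 kb on chromosome 6 (120036824 to 120585987). The strongest, from 120402199 to 120402887, held 296 Luchuan and 92 Duroc reads (2.27, interval 1.93 to 2.63), and the region from 120415589 to 120416082 had 249 and 157 (1.25). The rest of the gene did not lean: 14 of the 31 inside regions below the threshold were above 0, with a median of -0.07, and 1 was Duroc-biased at -2.22. CDH13, which encodes T-cadherin, a cell-surface receptor of adiponectin, held regions of both kinds over 1020 kb of chromosome 6 (4809752 to 5832188). Its 7 Luchuan-biased regions lay from 601 to 971 kb above its lower end, and its 8 Duroc-biased regions from 126 to 691 kb, with ratios from -2.16 to -1.02. The Luchuan-biased region with the most reads, from 5644856 to 5645482, held 292 Luchuan and 163 Duroc reads (1.43), and that with the largest ratio, from 5780049 to 5780457, had 96 and 36 (1.98). Of its 67 inside regions that were not Luchuan-biased 24 were above 0.

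**Figure D4:**
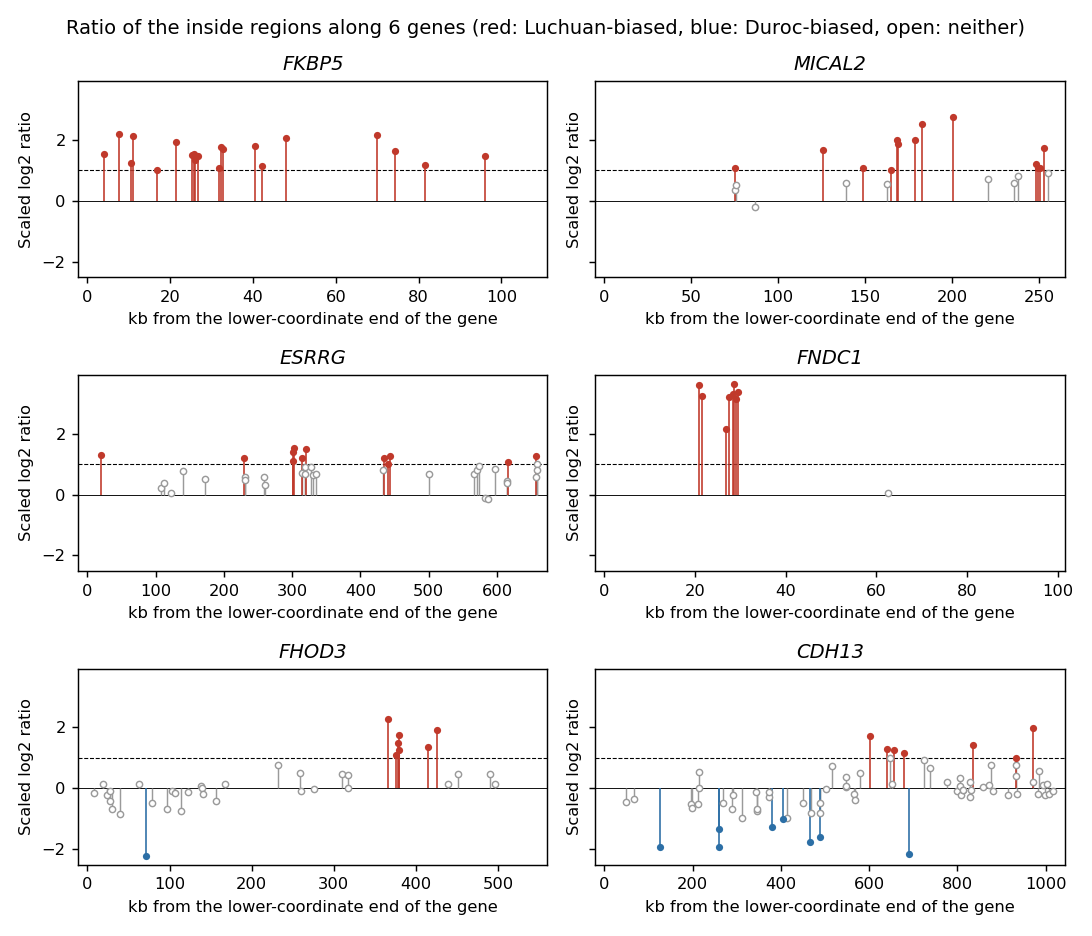
Stems give the log2 ratio of scaled Luchuan over Duroc reads of each inside region with 60 or more reads against its distance in kb from the lower-coordinate end of the gene, for 6 genes. Luchuan-biased regions (red) run along FKBP5, MICAL2 and ESRRG, stand in blocks of 8.7 kb in FNDC1 and 60.5 kb in FHOD3, and lie apart from most of the 8 Duroc-biased regions (blue) in CDH13.

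The other leading genes combined a few Luchuan-biased regions with many that were not. PDE4D, which encodes a phosphodiesterase that breaks down cyclic AMP, had 7 among 131 inside regions on chromosome 16, with ratios from 1.02 to 1.58, and 84 of the other 124 were above 0. The strongest, from 37934920 to 37935191, held 134 Luchuan and 67 Duroc reads. FAM13A had 7 of 28 on chromosome 8, led by that from 130268942 to 130269295 with 74 and 27 reads (2.01). SH3BP5, an exchange factor of the Rab11 GTPase, had 6 of 22 on chromosome 13 (1.07 to 1.71), and all 16 of the others were above 0. RALGPS1, an exchange factor of the Ral GTPases, had 6 of 26 on chromosome 1 (1.04 to 1.61), while both regions at its ends were below 0. ENOX1, which encodes a cell-surface oxidase, had 6 of 36 on chromosome 11 (1.01 to 1.48), and 28 of the other 30 were above 0.

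The 6 regions of ASB4, which encodes an ankyrin-repeat protein of ubiquitin ligases, include the 4 of PDK4, whose whole annotated span on chromosome 9 (75246956 to 75260134) lies within that of ASB4. PDK4 is the pyruvate dehydrogenase kinase that holds back the entry of pyruvate into the citric acid cycle during fasting, and glucocorticoids raise it. Its regions had 130, 52, 58 and 158 Luchuan and 53, 29, 23 and 70 Duroc reads, with ratios of 1.87, 1.41, 1.89 and 1.75. The regions at its lower end, which the rule left out, went further, with 224 and 69 reads (2.28) and 162 and 52 reads (2.21). The region at its upper end, by far the most heavily read of these, had 867 and 992 reads and a ratio of 0.40.

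Several further genes of metabolism and growth, grouped here after their values were seen, held Luchuan-biased regions. PFKFB3, the enzyme that makes the glycolysis activator fructose 2,6-bisphosphate, had 5 of 14 on chromosome 10. Of these, 4 stood between 64782269 and 64789280, with 70, 67, 65 and 151 Luchuan and 24, 24, 16 and 44 Duroc reads (ratios 2.10, 2.03, 2.55 and 2.35). At its lower end 3 more regions were past the threshold, with 411 and 222 reads (1.48), 114 and 39 (2.11) and 115 and 51 (1.75), while that at its upper end had 241 and 278 (0.39). PPARGC1A, the coactivator PGC-1 alpha that drives mitochondrial biogenesis, had 4 of 39 on chromosome 8, of which the region from 18185579 to 18186089 stood out with 96 and 27 reads (2.38, interval 1.79 to 3.09) and the other 3 had ratios of 1.05 to 1.23. AMPD3, an AMP deaminase, had 5 of 9 on chromosome 2 (1.01 to 1.96), of which that from 49058150 to 49058463 had 74 and 28 reads. CES1, a carboxylesterase that cleaves lipid esters, had 82, 57 and 132 Luchuan and 46, 24 and 68 Duroc reads in its 3 regions on chromosome 6 (1.41, 1.81 and 1.54). GHR, the growth hormone receptor, had 5 of 66 on chromosome 16 with ratios from 1.01 to 1.45, and 52 of the other 61 were above 0.

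By gene list, the glucocorticoid-induced genes and the lipid genes held the largest shares, and both rested on a leading gene. The lists were written with earlier results of these data known, so the shares are a description only. The 4 regions of PDK4 are counted both in the glucocorticoid-induced list and in that of insulin and glucose genes. Of 249 inside regions of the glucocorticoid-induced list, 28 (11.2%) were Luchuan-biased and 1 was Duroc-biased, against 2.35% and 4.78% over all genes, and the median ratio was 0.24 against -0.05. The 28 lay in FKBP5, PDK4, KLF9 and FOXO1, 4 of the 15 listed genes with an inside region, and without FKBP5 the count was 8 of 229 (3.49%). KLF9, a zinc-finger repressor that glucocorticoids induce, held 3 regions with 70, 58 and 45 Luchuan and 52, 36 and 26 Duroc reads (1.01, 1.26 and 1.36). FOXO1, a transcription factor of the fasting response, held 1 with 46 and 31 reads (1.15). Of 254 regions of lipid storage and oxidation genes 19 (7.48%) were Luchuan-biased, in ESRRG, PPARGC1A, PPARGC1B, LPIN1 and ACACA, and without ESRRG 7 of 214 (3.27%). Of 290 regions of insulin and glucose genes 13 (4.48%) were, in PFKFB3, PDK4, TBC1D1, GRB10 and IGF1R, and without PFKFB3 8 of 276 (2.9%). TBC1D1, which restrains the movement of the glucose transporter to the cell surface, held 2 with 99 and 66 and with 90 and 65 reads (1.17 and 1.05).

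Few regions in the listed genes of the contractile machinery were Luchuan-biased. FHOD3, with 7 Luchuan-biased regions, was placed in the list of the actin cytoskeleton and is not in these counts. Of 883 inside regions in 31 sarcomere and Z-disc genes, 1 (0.113%) was Luchuan-biased, in the M-band gene MYOM3 with 43 Luchuan and 25 Duroc reads (1.35), and 33 (3.74%) were Duroc-biased against 4.78% over all inside regions, with a median ratio of -0.15. Of 500 regions of excitation-contraction coupling and calcium genes, 1 (0.2%) was Luchuan-biased, in the calcium sensor gene STIM1 (44 and 31 reads, 1.08), and 25 (5.0%) were Duroc-biased. The muscle fibre markers had 0 of 441 regions Luchuan-biased and 21 (4.76%) Duroc-biased, so the Duroc-biased shares of the 3 lists were below or near that over all inside regions. These regions were heavily read, with a median of 226 reads in the sarcomere list and 272 in the fibre markers against 158 over all inside regions, and the Luchuan-biased share was lower at high read numbers. The part of the read number in these counts was not tested. Muscle transcription factor genes held 4 of 781 (0.512%), 3 in NFIA and 1 in NFATC1. The lists of other cell types held too few inside regions to be read against a background of 2.35%: 0 of 16 endothelial, 0 of 50 fibroblast, 0 of 16 macrophage and 0 of 14 adipocyte regions were Luchuan-biased, as were 2 of 45 Schwann cell regions (both in NCAM1) and 1 of 74 satellite cell regions (in PAX3).

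The shares of the signalling and structural lists lay on both sides of the background of 2.35%, from 0.408% to 4.5%. Genes of the actin cytoskeleton and its signalling had 17 of 745 (2.28%), of which 7 were in FHOD3 and the rest in ARHGAP26, LIMCH1, LPP, TNS1, ARHGEF10 and VAV2. Genes of the neuromuscular junction and dystrophin complex had 9 of 365 (2.47%), in SNTB1, SGCD, MUSK, SSPN, UTRN and DTNA. Calcineurin, HDAC and AMPK genes had 8 of 346 (2.31%), among them 3 each in the kinases SIK2 and SIK3. Wnt and planar polarity genes had 9 of 200 (4.5%), and without PRICKLE2 6 of 190 (3.16%). TGF-beta, BMP and activin genes had 1 of 245 (0.408%), in TGFBR2, and circadian clock genes had 1 of 204 (0.49%), in HLF. Genes of cyclic AMP and receptor signalling, grouped here after their values were seen, were among those with several regions. ADCY5, an adenylyl cyclase, had 4 of 15 on chromosome 13, the strongest with 144 Luchuan and 46 Duroc reads (2.22). PDE1C, a phosphodiesterase, had 4 of 15 on chromosome 18, which all lay within 1.29 kb, with 234, 147, 43 and 201 Luchuan and 141, 56, 27 and 150 Duroc reads. GRK5, a kinase that desensitises receptors, had 5 of 15 on chromosome 14, the strongest with 222 and 67 reads (2.30).

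The largest ratios outside FNDC1 belonged to single regions in genes of many kinds. ZDHHC2, a palmitoyl transferase, had a region on chromosome 17 from 4913408 to 4913742 with 77 Luchuan and 10 Duroc reads (3.42, interval 2.58 to 4.65), and GRIK4, a kainate receptor subunit, one on chromosome 9 from 47683477 to 47683761 with 72 and 10 (3.32, 2.48 to 4.56). CNGB1, SEC14L1, STAG1, DEPDC5, FSTL4, CA8, ANKS1B and TTLL1 followed with ratios from 3.02 to 3.26. SEC14L1, a lipid-binding protein gene on chromosome 12, had 5 more regions, with ratios of 1.07 to 2.88, and FSTL4 on chromosome 2 had 2 more, at 2.16 and 2.22. At the other end of the scale of reads, the region with the most reads was in LOC102165734 on chromosome 11 (71193210 to 71194254), with 706 Luchuan and 445 Duroc reads (1.26, interval 1.08 to 1.43). With 480 or more reads, 2 regions reached a ratio of 2. The region of DEPDC5, a subunit of a complex that holds back mTORC1 when amino acids are scarce, lay on chromosome 14 from 48492133 to 48493095 and held 417 and 71 reads (3.13, 2.78 to 3.53). That of WDFY3, which encodes an adaptor of selective autophagy, lay on chromosome 8 from 133932067 to 133933016 and held 475 and 137 reads (2.38, 2.11 to 2.67).

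Regions that the rule did not use leaned the same way in genes with several Luchuan-biased regions. Within 2 kb of the ends of the 77 genes with 3 or more, 140 regions with 60 or more reads had a median ratio of 0.21. Of these, 83.6% were above 0 and 6.43% at 1 or more, against 56.5% and 0.717% over all genes. In genes with 0, 1 and 2 Luchuan-biased regions the medians were 0.03 (11310 regions, 54.9% above 0), 0.12 (879, 68.4%) and 0.20 (189, 78.8%). In genes with 3 or more Duroc-biased regions the median was -0.04 (269 regions, 44.6% above 0). Without FKBP5 the median for 3 or more was 0.21 (134 regions). The median at the ends was well below the threshold of 1, and the 9 end regions past it lay in PFKFB3, PDK4, ASB4, CD59, CES1 and ZNF521. Long genes leaned towards Luchuan at their ends also without a biased region inside: in genes of 100 kb or more the median was 0.09 with 0 Luchuan-biased regions (2876) and 0.18 with 3 or more (102). In these long genes the shares at 1 or more were 0.939% and 1.96%. Inside regions of 20 to 59 reads, which were too shallow for the rule, had a median of 0.59 in genes with 3 or more (910 regions, 81.3% above 0), against 0.09 in genes with 0 (17714, 55.7%) and 0.14 over all genes. These medians come from the same libraries as the rule, so they are values and not a repeat of the measurement. The medians and the shares above 0 also depend on the scale.

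The nearest regions on either side, which include other Luchuan-biased regions, also leaned to Luchuan, and this lean became smaller with distance. Neighbours of Luchuan-biased regions had a median ratio of 0.88 within 1 kb (321 neighbours, 97.2% above 0), 0.59 at 1 to 2 kb (135), 0.34 at 2 to 5 kb (287), 0.28 at 5 to 20 kb (760) and 0.20 at 20 to 100 kb (544). Neighbours of all inside regions lay between -0.07 and 0.02 in the same classes, and those of Duroc-biased regions went from -0.84 to -0.12. The pattern was thus mirrored in the other breed. Without FKBP5 the first and the last class had medians of 0.84 and 0.20. Adjoining regions can share read pairs and can both be Luchuan-biased. In order of distance, 43.6%, 34.1%, 23.3%, 12.8% and 11.6% of the neighbours were past the threshold themselves. For neighbours of all inside regions the share was 1.49% to 3.19%. The medians therefore hold values that the rule used and are no separate measure. Of the 1088 regions, 277 (25.5%) had another within 10 kb, against 631 (28.6%) of the Duroc-biased.

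**Figure D5:**
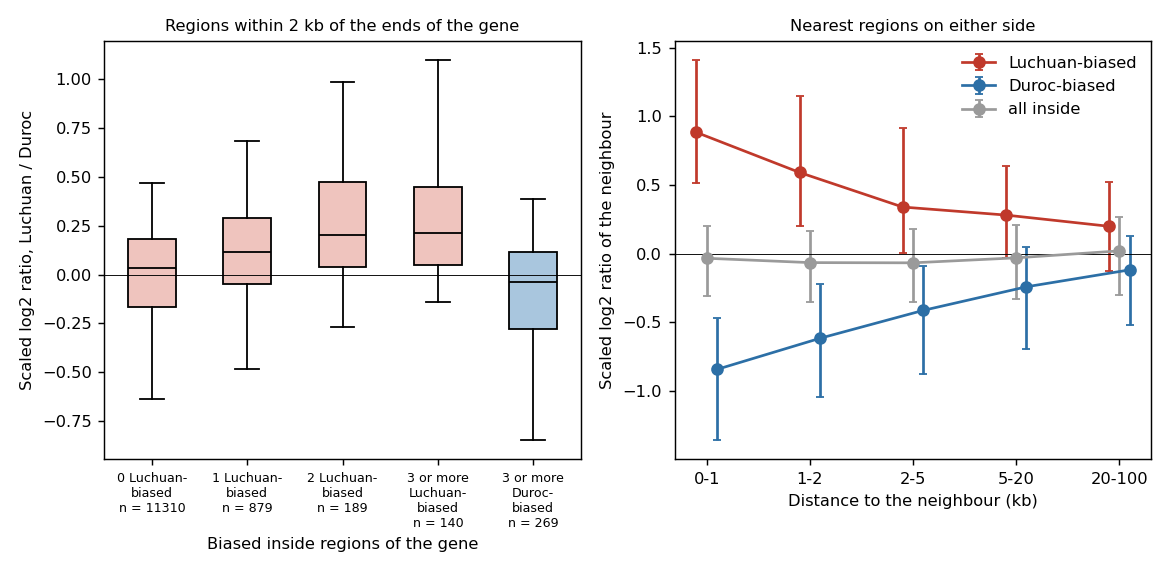
Left, boxes give the quartiles and median, and whiskers the 5th and 95th percentiles, of the log2 ratio of regions within 2 kb of gene ends, by the number of biased inside regions of the gene. Right, points and bars give the median and quartiles of the ratio of the nearest region by distance in kb: the median falls from 0.88 to 0.20 for Luchuan-biased regions (red), rises from -0.84 to -0.12 for Duroc-biased regions (blue) and stays near 0 for all inside regions (grey).

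Some of these genes held regions of both kinds. Of the 719 genes with a Luchuan-biased region, 171 (23.8%) also held a Duroc-biased region, which is 11.9% of the 1441 genes with one, and over all 8159 genes with an inside region the share with a Duroc-biased region was 17.7%. Of the 77 genes with 3 or more, 60 held no Duroc-biased region and 22.1% held at least 1. The long genes CDH13 with 8 and WWOX with 7 were among the latter. WWOX, which encodes an oxidoreductase with WW domains, held 6 Luchuan-biased regions (1.12 to 2.67) among 86 inside regions.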

How the data were processed

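ATAC-seq reads of longissimus dorsi muscle from 3 Duroc and 3 Luchuan boars were processed by the authors with Trimmomatic 0.36, Bowtie2, the assembly Sscrofa11.1 and MACS2, per the labels and the methods. The authors deposited 1 table of 217213 peak rows with raw read counts per breed; its log2 fold change, log2 average signal and p-value columns, also deposited by the authors, hold their own comparison and were not used. Counts were not stated to be pooled over the 3 animals, which was read from the column names. The RNA-seq samples of the series were not analysed here. Overlapping rows were merged to the longest, starts were read as 0-based because the shortest row is then 150 bases, and coordinates are printed 1-based. Genes came from a RefSeq table of the same assembly, with 18722 autosomal protein-coding genes and no strand or exons. Depth was 20275377 Duroc and 13459633 Luchuan reads over the autosomal regions, with medians of 61 and 38 per region, which sets the counting intervals (95%, Clopper-Pearson). Samples were grouped by breed from the labels. With 1 count per breed no test between animals was possible and no p-value is given. Named were the genes with 3 or more regions, in order of number and then reads, with the 12 leading genes described in full; the 6 regions of largest ratio and the 6 with most reads; the 3 nearest each side of the threshold; and all listed genes with a region, except a few items that are not reported here. The members and the gene lists were chosen with earlier results of these data known, and support nothing by themselves. Steps were checked on simulated counts with large changes in well-read regions only. That check does not cover regions near the threshold or with few reads. The alternatives covered the scaling (scales of 1.51 and 1.53, both from reads in regions), pseudocount, read minimum, Duroc minimum, threshold, merging and gene models. Tables were handled with pandas 2.3.3 and NumPy 2.4.6 under Python 3.11.15, intervals came from SciPy 1.17.1, and plots from Matplotlib 3.10.9.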

Additional observations from a re-analysis of the deposited data

How the results depend on the processing

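Of 78 alternative values of the 5 summary results, 65 stayed close to the reported one and 13 moved. Counts were called close within a factor of 1.5, which is a wide limit. No alternative took the scale from all reads of the libraries, so the dependence on such a scale is not covered. The share was called close from 2.22% to 2.50%, and the median at gene ends from 0.18 to 0.25. With a pseudocount of 5, 2.17% of inside regions were Luchuan-biased, and the Duroc-biased numbered 1618 against 2207, a change still called close. With a minimum of 30 reads the Luchuan-biased regions numbered 2990 (4.57%) and the genes with 3 or more 262; with 120 reads they numbered 441 (1.53%) and 23, and the Duroc-biased 1217. At a ratio of 1.5 they numbered 309 (0.669%) and 14, the Duroc-biased 663, and the median ratio at the gene ends was 0.17. At 30 reads the Duroc-biased numbered 2980, so the order of the breeds turned there. Without FKBP5, an alternative chosen after seeing the data, 1068 regions (2.31%) were left. The region count of a single gene moved further: FKBP5 held 7 to 30, MICAL2 7 to 17, ESRRG 1 to 17 and FNDC1 1 to 8 regions over the alternatives. With the 2 kb limit applied to the ends of every gene type, FNDC1 kept 5 of its 8 regions and FKBP5 16 of its 20. No paired analysis was possible because the deposited columns carry no replicate numbers, and leaving out each animal in turn was not run because no values per animal were used. Depth limits the smaller regions: the median interval was 1.25 wide on the log2 scale, so single regions near the threshold cannot be placed on either side of it.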

Other observations

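On chromosome X, which the main counts leave out, the same rule and scale gave 21 Luchuan-biased (1.89%) and 116 Duroc-biased (10.5%) of 1110 inside regions, with a median ratio of -0.24. All animals were males. HS6ST2, which encodes a sulfotransferase of heparan sulfate, held 3 of the 21, with 131 Luchuan and 37 Duroc reads (ratio 2.39), 173 and 84 reads (1.62) and 62 and 40 reads (1.21). Single regions of CHM (47 and 16 reads, 2.09), FAM199X (106 and 37, 2.08) and BMX (66 and 31, 1.66) were among the others. On chromosome Y, 12 inside regions were measured, of which 0 were Luchuan-biased and 1 was Duroc-biased.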
